A study of Mus musculus with 12 samples.

Results

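The insulin-like growth factor (IGF) axis was examined through 9 genes: the ligand gene Igf1, the receptor genes Igf1r and Igf2r, and the binding protein genes Igfbp2, Igfbp3, Igfbp4, Igfbp5, Igfbp6 and Igfbp7. Every probe set whose platform gene symbol was one of these names was taken, which gave 21 of the 22690 probe sets on the array. All 9 genes had at least 1 probe set. Of the 21 probe sets, 16 from 8 genes had a mean log2 signal above the 40th percentile of the array and were tested among 13575 probe sets. The only probe set of Igfbp6, 1 each of Igf1 and Igf1r, and 2 of Igfbp7 were dimmer, and their values come from the same model fitted to all 22626 probe sets other than array controls.

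RNA came from spinal cords of 13-day-old mice on an FVB background (line 4299), a model of severe spinal muscular atrophy (SMA), in which motor neurons are lost because survival motor neuron protein is scarce. There were 4 arrays in each of 3 groups. SMA ceftriaxone mice carried the genotype SMN2+/+;SmnΔ7+/+;mSmn−/− and received the beta-lactam antibiotic ceftriaxone by intraperitoneal injection, 200 mg/kg daily from day 5. SMA vehicle mice had the same genotype and received vehicle. The mice labelled wildtype, also given vehicle, were SMN2+/+;SmnΔ7+/+;mSmn+/−, so they carried the human SMN2 and SmnΔ7 transgenes as well, with 1 intact mouse Smn allele. The labels mention both whole cords and lumbar segments, state that the mice were perfused with fixative, and do not state sex. Each value is a hybridisation signal scaled to the same average on every array, so signals of one probe set can be compared between arrays, but signals of different probe sets cannot be ranked against each other. Tests used log2(signal + 16) in limma, with adjusted p under 0.05 as the threshold.

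The targeted gene, Smn1, had mean signals of 7.28 ± 5.85 in SMA ceftriaxone, 4.23 ± 0.991 in SMA vehicle and 313 ± 70.1 in wildtype cords (SD, n = 4 each). Wildtype array 2 stood apart: its correlation with the other wildtype arrays was 0.924 to 0.930, against at least 0.986 among those, and its signal for Rag1, a recombinase gene of developing lymphocytes, was 7863, against at most 48.2 on the other wildtype arrays. The summed signal of 10 thymus marker genes was 120 to 531.6 in SMA ceftriaxone, 84.5 to 139.1 in SMA vehicle and 157.6 to 38369.5 in wildtype cords. Xist, the RNA of the inactive X chromosome, exceeded a signal of 1000 on 4 SMA ceftriaxone, 2 SMA vehicle and 1 wildtype array. Marker genes of nervous tissue were strong on all arrays: the summed signal of 12 mature neuron genes was 65151 to 73043 in SMA ceftriaxone, 66396 to 73852 in SMA vehicle and 53896 to 80744 in wildtype cords. In cord RNA, fewer cells of a type and less RNA per cell cannot be told apart.

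Insulin-like growth factors are secreted peptides that act through the type 1 receptor, a tyrosine kinase encoded by Igf1r, to promote survival, growth and myelination in the nervous system. The receptor encoded by Igf2r takes up IGF2 for degradation in lysosomes and carries lysosomal enzymes. Binding proteins hold the ligands outside cells, lengthen their life and either restrain or present them to receptors, until proteases release the ligand. Igfbp7 encodes a related secreted protein with low affinity for IGFs.

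Igf1, Igfbp2, Igfbp3 and Igfbp5 were the 4 members with probe sets above the filter that were higher in SMA vehicle cords than in wildtype cords, and the sequence before their annotated starts is given here to show what those promoters share. Igf1 lies on chromosome 10 and Igfbp3 on chromosome 11, next to Igfbp1, while Igfbp2 and Igfbp5 are adjacent coding genes on chromosome 1. Each line holds the 150 bases upstream of the gene start from RefSeq (GRCm38.p6), 5′ to 3′ on the gene's strand, with any searched motif in capitals. The windows are chr10:87860961-87861110 (+) for Igf1, chr1:72824330-72824479 (+) for the first of 2 starts of Igfbp2, chr11:7213924-7214073 (−) for Igfbp3 and chr1:72874866-72875015 (−) for Igfbp5.
Igf1: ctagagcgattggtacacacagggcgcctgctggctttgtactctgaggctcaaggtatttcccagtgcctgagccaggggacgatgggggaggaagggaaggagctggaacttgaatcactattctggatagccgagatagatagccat
Igfbp2: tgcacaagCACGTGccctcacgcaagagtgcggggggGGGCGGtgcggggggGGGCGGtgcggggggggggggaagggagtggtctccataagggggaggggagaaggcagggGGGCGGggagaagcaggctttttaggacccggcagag
Igfbp3: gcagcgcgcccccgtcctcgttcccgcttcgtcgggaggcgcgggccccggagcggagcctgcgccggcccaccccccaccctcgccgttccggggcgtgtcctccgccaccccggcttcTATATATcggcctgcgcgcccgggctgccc
Igfbp5: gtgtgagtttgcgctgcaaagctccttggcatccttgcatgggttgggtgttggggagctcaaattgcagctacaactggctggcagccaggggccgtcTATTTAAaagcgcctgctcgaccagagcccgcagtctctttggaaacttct
The motifs searched on both strands over 300 bases around each start were the TATA element TATAAA, the GC box GGGCGG, the E-box CACGTG, and the TATA variants TATTTAA and TATATAT, which can overlap TATAAA. Igfbp2 held 3 GC boxes and 1 E-box, Igfbp3 held TATATAT at position -30 from the start, Igfbp5 held TATTTAA at position -51, and Igf1 held none of these. Of the 9 first windows of the members, 2 held TATAAA, 4 a GC box, 2 an E-box and 2 a TATA variant. Among 32851 mouse promoter windows of the same length the shares were 13.6% for TATAAA, 35.7% for the GC box, 7.15% for the E-box and 7.16% for the variants. No searched motif was present in all 4 printed promoters.

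**Figure D1:**
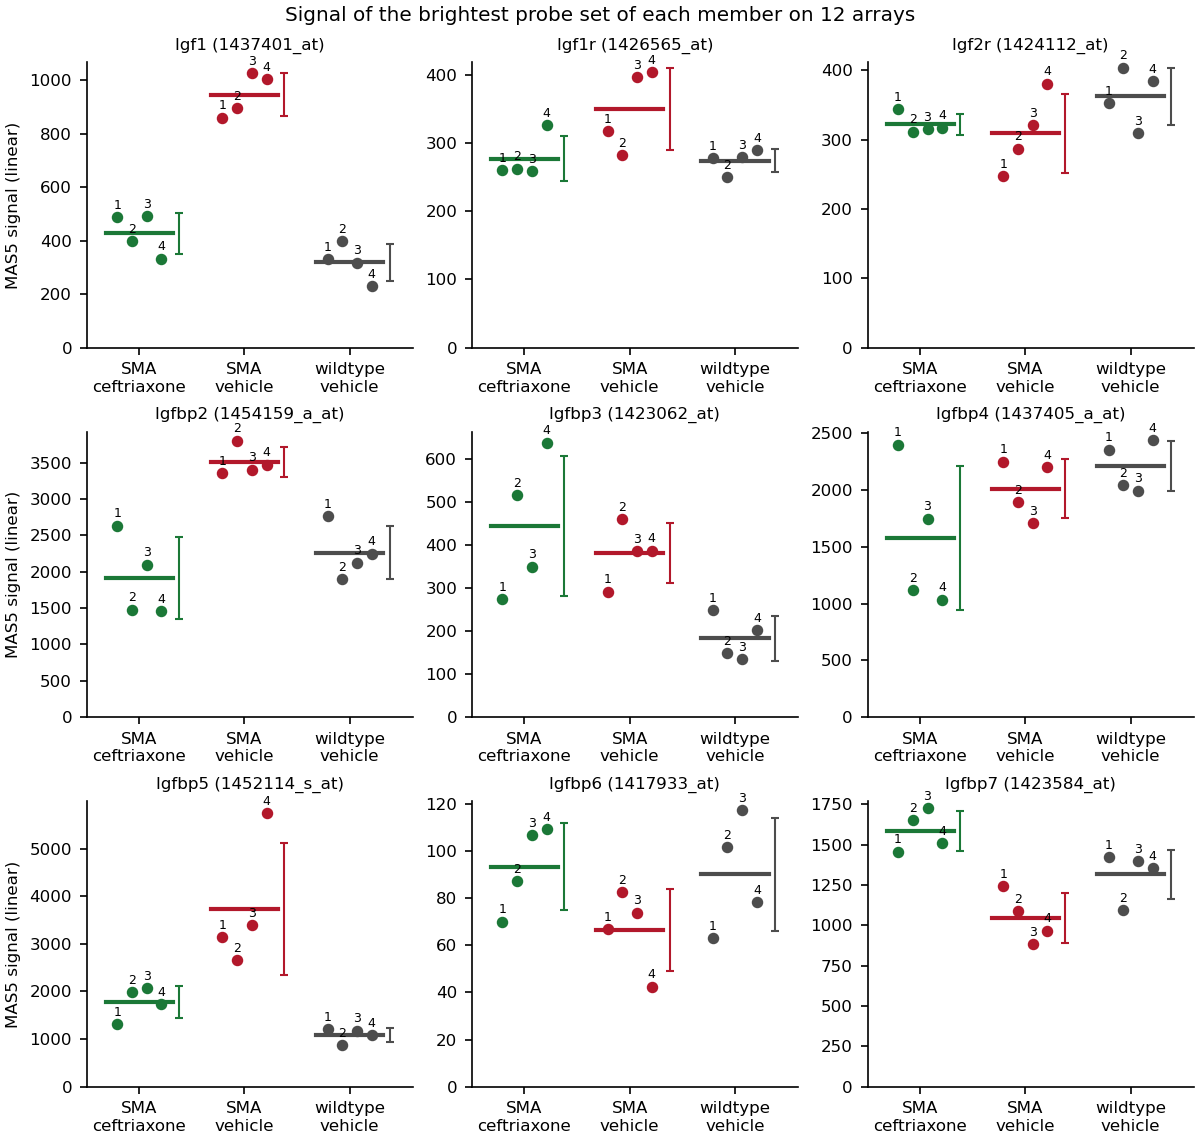
MAS5 signal (linear axis from 0) of the brightest probe set of each of the 9 members on 12 arrays, with SMA ceftriaxone, SMA vehicle and wildtype vehicle from left to right. Points are single arrays with their number, horizontal lines are group means and bars are 1 SD (n = 4). Igf1, Igfbp2 and Igfbp5 are highest on all 4 SMA vehicle arrays, Igfbp3 is low on the wildtype arrays and Igfbp7 is highest on the SMA ceftriaxone arrays.

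The ligand gene Igf1 was higher in SMA vehicle cords than in either other group. Its brightest probe set, 1437401_at, gave 489, 399.7, 493 and 334 in SMA ceftriaxone, 861, 895, 1028 and 1004 in SMA vehicle, and 331, 398, 318 and 231 in wildtype cords. All 4 SMA vehicle arrays lay above every array of the other groups, and SMA ceftriaxone overlapped wildtype. The log2 fold change was 1.54 ± 0.16 (SE) for SMA vehicle against wildtype (limma adjusted p = 7.2e-06) and -1.13 ± 0.16 for SMA ceftriaxone against SMA vehicle (adjusted p = 0.000186). For SMA ceftriaxone against wildtype it was 0.41 ± 0.16 (adjusted p = 0.159). That value passed the threshold without wildtype array 2 (0.52, adjusted p = 0.0407) and with array quality weights (0.55, adjusted p = 0.0212).

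The second Igf1 probe set, 1419519_at, had the same order of groups. Its signals were 95.3, 128, 120.2 and 98.9 in SMA ceftriaxone, 221, 232, 328 and 305 in SMA vehicle, and 114, 105, 90.0 and 100 in wildtype cords. The fold change of SMA vehicle against wildtype was 1.27 ± 0.15 on the log2 scale (adjusted p = 2.25e-05). For SMA ceftriaxone against SMA vehicle it was -1.17 ± 0.15 (adjusted p = 0.000119), and for SMA ceftriaxone against wildtype 0.10, with a 95% interval from -0.23 to 0.42 (adjusted p = 0.778). The dim probe set 1452014_a_at was 0.85 higher on the log2 scale in SMA vehicle than in wildtype cords (adjusted p = 0.0206 among all probe sets), with overlapping groups. Its change of -0.65 in SMA ceftriaxone against SMA vehicle did not pass (adjusted p = 0.0845). An antisense transcript gene of Igf1 overlaps it and had 1 probe set, with signals of 1.3 to 15.9 on the 12 arrays.

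The gene of the type 1 receptor, Igf1r, stood at the threshold. Probe set 1426565_at gave 260.1, 262, 259 and 326 in SMA ceftriaxone, 318, 282, 397 and 404 in SMA vehicle, and 278, 249.6, 279 and 289 in wildtype cords. SMA vehicle arrays 3 and 4 lay above all others, while SMA vehicle array 2 lay within the wildtype range. The log2 fold change was 0.32 ± 0.13 for SMA vehicle against wildtype (adjusted p = 0.0501) and -0.31 ± 0.13 for SMA ceftriaxone against SMA vehicle (adjusted p = 0.0695), so neither passed. Leaving out SMA vehicle array 2 gave 0.42 (adjusted p = 0.0164) and -0.41 (adjusted p = 0.0255), and leaving out SMA ceftriaxone array 4 also took both past the threshold (adjusted p = 0.0429 and 0.0394). Without wildtype array 2 the second passed (adjusted p = 0.0441). With the replicate block the adjusted p-values were 0.0322 and 0.0469. An offset of 64, median centring and eBayes without a trend took the first past the threshold (adjusted p = 0.0412 to 0.0494), and array quality weights the second (adjusted p = 0.0242). SMA ceftriaxone against wildtype was 0.01, with a 95% interval from -0.26 to 0.28. The dim probe set 1452108_at had signals of 20.5 to 50.5 in SMA ceftriaxone, 45.0 to 58.8 in SMA vehicle and 40.8 to 61.2 in wildtype cords, and passed in no comparison.

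The gene of the IGF2 scavenging receptor, Igf2r, was lower in SMA vehicle than in wildtype cords at 1 of its 2 probe sets. Probe set 1424111_at gave 277, 206, 228 and 224 in SMA ceftriaxone, 222, 225, 201 and 195 in SMA vehicle, and 278, 305, 309 and 271 in wildtype cords. The SMA vehicle and wildtype arrays did not overlap, and SMA ceftriaxone array 1 lay with wildtype while arrays 2 to 4 lay near SMA vehicle. The change was -0.44 ± 0.11 on the log2 scale for SMA vehicle against wildtype (adjusted p = 0.00476), 0.14 ± 0.11 for SMA ceftriaxone against SMA vehicle (adjusted p = 0.354) and -0.30 ± 0.11 for SMA ceftriaxone against wildtype (adjusted p = 0.138). The brighter probe set 1424112_at gave 344, 311, 315 and 317 in SMA ceftriaxone, 247, 287, 321 and 380.4 in SMA vehicle, and 352, 404, 309 and 384 in wildtype cords. Its groups overlapped, and its change of -0.23 ± 0.13 for SMA vehicle against wildtype did not pass (adjusted p = 0.151). Without SMA vehicle array 4 it was -0.33 (adjusted p = 0.0435).

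Igfbp5, whose protein binds extracellular matrix and is made by many developing tissues, had the largest log2 fold change of the members in SMA vehicle against wildtype cords. Probe set 1452114_s_at gave 1314, 1991, 2069 and 1730 in SMA ceftriaxone, 3140.3, 2655, 3388 and 5748 in SMA vehicle, and 1207, 870.4, 1175 and 1080 in wildtype cords. The 3 groups did not overlap, with SMA ceftriaxone between the others. The log2 fold changes were 1.72 ± 0.21 for SMA vehicle against wildtype (adjusted p = 2.77e-05) and -1.02 ± 0.21 for SMA ceftriaxone against SMA vehicle (adjusted p = 0.00233). SMA ceftriaxone against wildtype was 0.70 ± 0.21 and did not pass (adjusted p = 0.084). It passed without SMA vehicle array 4, the highest array (adjusted p = 0.0306) and with array quality weights (adjusted p = 0.0386).

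The second Igfbp5 probe set, 1422313_a_at, gave 144, 222, 264 and 238 in SMA ceftriaxone, 493, 357, 471 and 935 in SMA vehicle, and 146, 88.8, 152 and 91.4 in wildtype cords. SMA vehicle arrays lay above all others, and SMA ceftriaxone array 1 lay within the wildtype range. The changes were 2.04 ± 0.27 for SMA vehicle against wildtype (adjusted p = 5.45e-05) and -1.26 ± 0.27 for SMA ceftriaxone against SMA vehicle (adjusted p = 0.00322). SMA ceftriaxone against wildtype was 0.79 ± 0.27 (adjusted p = 0.126).

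Igfbp2, the neighbour of Igfbp5 and the gene of a binding protein abundant in developing brain and cerebrospinal fluid, was also higher in SMA vehicle cords. Its only probe set, 1454159_a_at, gave 2631, 1477, 2099 and 1458 in SMA ceftriaxone, 3357, 3801, 3402 and 3470 in SMA vehicle, and 2761, 1900, 2123 and 2250 in wildtype cords. All SMA vehicle arrays lay above all others, and the coefficient of variation was 29.3% in SMA ceftriaxone, 5.74% in SMA vehicle and 16.2% in wildtype cords. The log2 fold change was 0.64 ± 0.17 for SMA vehicle against wildtype (adjusted p = 0.00687) and -0.91 ± 0.17 for SMA ceftriaxone against SMA vehicle (adjusted p = 0.00124). SMA ceftriaxone against wildtype was -0.27, with a 95% interval from -0.63 to 0.10 (adjusted p = 0.421).

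Igfbp3, the gene of the main IGF carrier in blood, was higher than wildtype in both SMA groups. Probe set 1423062_at gave 275, 515, 350 and 638 in SMA ceftriaxone, 291, 460.0, 386 and 387 in SMA vehicle, and 248, 149, 135 and 202 in wildtype cords. Every SMA array lay above the highest wildtype array, and the SMA groups overlapped. SMA vehicle against wildtype was 1.01 ± 0.25 on the log2 scale (adjusted p = 0.00432) and SMA ceftriaxone against wildtype was 1.17 ± 0.25 (adjusted p = 0.0212). SMA ceftriaxone against SMA vehicle was 0.16, with a 95% interval from -0.37 to 0.69 (adjusted p = 0.644). The call for SMA ceftriaxone against wildtype was lost without wildtype array 3 (1.05, adjusted p = 0.062), SMA ceftriaxone array 2 (1.08, adjusted p = 0.0643) or SMA ceftriaxone array 4 (0.98, adjusted p = 0.055). It was also lost with Xist signal as a covariate (1.42, adjusted p = 0.0534), with the Gapdh 3 prime to 5 prime ratio as a covariate (1.04, adjusted p = 0.0874) and with only the 2 groups in the fit (1.17, adjusted p = 0.0785). Xist exceeded 1000 on 4 arrays of SMA ceftriaxone and 1 of wildtype, and against that 1 wildtype array the change was 1.53.

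Igfbp7, the gene of the low-affinity relative that is strong in blood vessels, had its lowest mean in SMA vehicle cords. Probe set 1423584_at gave 1457, 1652, 1727 and 1512 in SMA ceftriaxone, 1245, 1090, 883 and 968 in SMA vehicle, and 1425, 1095, 1400 and 1353 in wildtype cords. SMA ceftriaxone arrays lay above all others, and wildtype array 2 lay among the SMA vehicle arrays. The log2 fold change was 0.60 ± 0.11 for SMA ceftriaxone against SMA vehicle (adjusted p = 0.00141), and 0.27 ± 0.11 for SMA ceftriaxone against wildtype (adjusted p = 0.205). For SMA vehicle against wildtype it was -0.33 ± 0.11 (adjusted p = 0.0288), a call lost with the replicate block (adjusted p = 0.0512), with median centring (adjusted p = 0.103), with the Gapdh ratio as a covariate (adjusted p = 0.0582), with only the 2 groups in the fit (adjusted p = 0.0572), and without wildtype array 1, 3 or 4 or SMA vehicle array 3 or 4 (adjusted p = 0.0638 to 0.0969). The dim probe set 1423585_at had signals of 45.1 to 53.1 in SMA ceftriaxone, 20.1 to 23.7 in SMA vehicle and 32.5 to 57.1 in wildtype cords. Among all probe sets it was 0.76 higher in SMA ceftriaxone than in SMA vehicle cords (adjusted p = 0.00385) and changed by -0.54 in SMA vehicle against wildtype cords (adjusted p = 0.0177). The third probe set, 1437804_at, gave 4.2 to 30.0 over all arrays and passed in no comparison. The summed signal of 9 endothelial marker genes was 4351 to 5560.2 in SMA ceftriaxone, 3084 to 4300 in SMA vehicle and 4353 to 6024 in wildtype cords. Of 8 such genes above the filter, 5 were lower in SMA vehicle than in wildtype cords, where 22.3% of all probe sets were lower. In SMA ceftriaxone against SMA vehicle 5 were higher, where 18.3% of all probe sets were higher. The part of endothelial cells in the Igfbp7 result was not tested. Other cell types with markers lower in SMA vehicle cords are given below.

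Igfbp4, whose protein mostly restrains IGF action and is cut by pappalysin, had 6 probe sets, and none passed for SMA vehicle against wildtype. The scattered probe set 1437406_x_at passed there without wildtype array 2 (-1.27, adjusted p = 0.0189) and with array quality weights (-1.32, adjusted p = 0.00554). Probe set 1423756_s_at passed there on arrays of low Xist signal (-0.52, adjusted p = 0.0422) but was 0.085 on arrays of high Xist signal. The brightest, 1437405_a_at, gave 2396, 1119, 1747 and 1033 in SMA ceftriaxone, 2247, 1892, 1704 and 2198 in SMA vehicle, and 2352, 2043, 1993 and 2436 in wildtype cords. SMA ceftriaxone arrays 2 and 4 were the lowest of all 12, while array 1 was among the highest. There were 2 calls in SMA ceftriaxone against SMA vehicle. Probe set 1421992_a_at gave 376, 239, 335 and 204 in SMA ceftriaxone, 621, 410.0, 402 and 488 in SMA vehicle, and 469, 428, 393 and 440 in wildtype cords, so SMA ceftriaxone lay below the other groups. Its change was -0.72 ± 0.18 (adjusted p = 0.0074). Probe set 1421991_a_at changed by -0.64 ± 0.22 (adjusted p = 0.0397) with overlapping groups, and it lost its call without array 2 or 4 of SMA ceftriaxone, any 1 of SMA vehicle, or array 3 of wildtype (adjusted p = 0.0509 to 0.124), without the filter (adjusted p = 0.0649) and on arrays of high Xist signal (-0.81, adjusted p = 0.059). The other 4 Igfbp4 probe sets ran from -0.16 to -0.43 in that comparison and did not pass. Without SMA ceftriaxone array 1, 3 of those 4 passed (-0.62 to -0.66, adjusted p = 0.0102 to 0.021). Against wildtype all 6 were negative in SMA ceftriaxone cords, from -0.50 to -1.05, and none passed (adjusted p = 0.0843 to 0.229). However, 4 passed without SMA ceftriaxone array 1 (adjusted p = 0.0278 to 0.0469) and 1437406_x_at without wildtype array 2 (-1.43, adjusted p = 0.0463). With array quality weights all but 1421991_a_at passed (-0.59 to -1.56, adjusted p = 0.0152 to 0.0474).

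The members differed in how SMA ceftriaxone cords varied among themselves. SMA ceftriaxone arrays 2 and 4 had lower signals than arrays 1 and 3 for Igfbp2 and for all 6 Igfbp4 probe sets, and higher signals for Igfbp3. The highest array was 2.32 times the lowest for Igfbp3 and 4.62 times for Igfbp4 probe set 1437406_x_at, against 1.19 times for Igfbp7 probe set 1423584_at. Igfbp6, whose protein prefers IGF2, had only a dim probe set, 1417933_at, with signals of 70.0 to 109 in SMA ceftriaxone, 42.4 to 82.6 in SMA vehicle and 63.0 to 117 in wildtype cords. It passed in no comparison (adjusted p = 0.203 to 0.934).

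**Figure D2:**
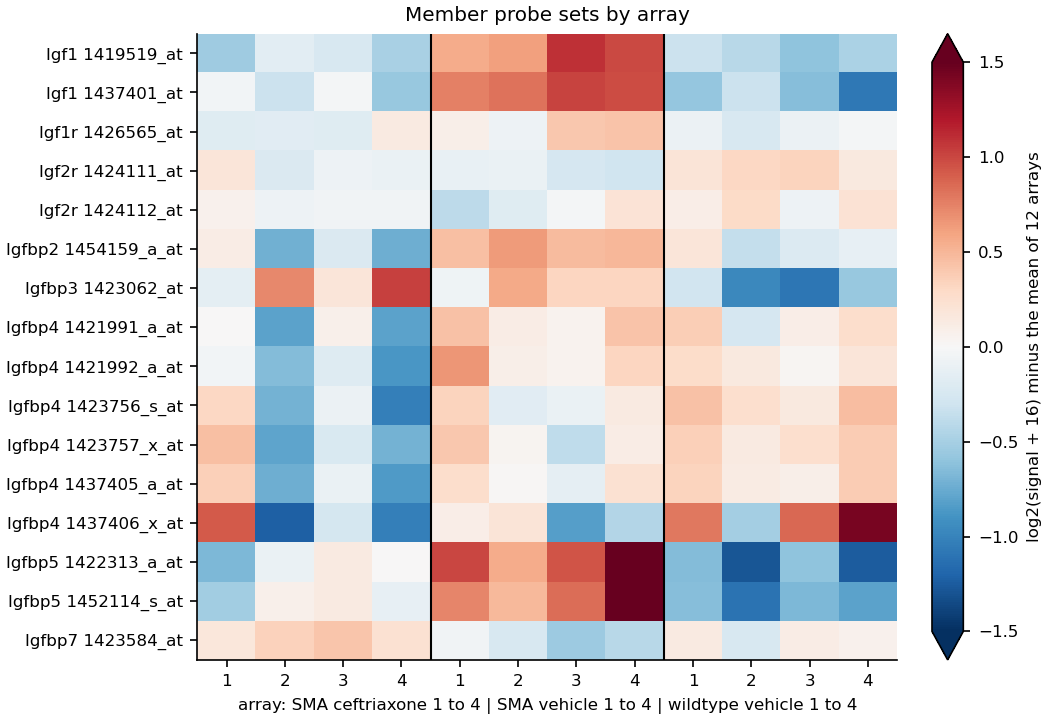
Heat map of the 16 member probe sets kept by the filter (vertical axis) on 12 arrays (horizontal axis, SMA ceftriaxone, SMA vehicle and wildtype vehicle from left to right). Colour gives log2(signal + 16) minus the probe set's mean over all arrays, red above and blue below it. The Igf1, Igfbp2 and Igfbp5 probe sets are red on the SMA vehicle arrays, and Igfbp4 probe sets are blue on SMA ceftriaxone arrays 2 and 4.

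Over the 16 probe sets above the filter, 6 of 4 genes were higher in SMA vehicle cords than in wildtype cords, 2 were lower and 8 did not pass. That is 50% called, read against a background of 47.2% of all probe sets tested, of which 24.9% were higher and 22.3% lower, so the members' share was near the background. For SMA ceftriaxone against SMA vehicle, 1 was higher (Igfbp7), 7 of 4 genes were lower and 8 did not pass, again 50%, against 35.9% of all probe sets, with 18.3% higher and 17.7% lower. The median was -0.43 for the members and -0.01 for all probe sets. Against wildtype, SMA ceftriaxone cords had 1 higher (Igfbp3), 0 were lower and 15 did not pass by limma, while 4.21% of all probe sets were called, 3.29% higher and 0.928% lower. The median absolute log2 fold change of the members was 0.39 for SMA vehicle against wildtype, 0.52 for SMA ceftriaxone against SMA vehicle and 0.53 for SMA ceftriaxone against wildtype. Over all probe sets tested it was 0.30, 0.24 and 0.14 in the same comparisons. Of the 16 probe sets, 6 belong to Igfbp4, whose signals scattered among the SMA ceftriaxone arrays. Comparisons with SMA vehicle cords share those 4 arrays, as comparisons with wildtype cords share the 4 wildtype arrays and those with SMA ceftriaxone its 4.

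**Figure D3:**
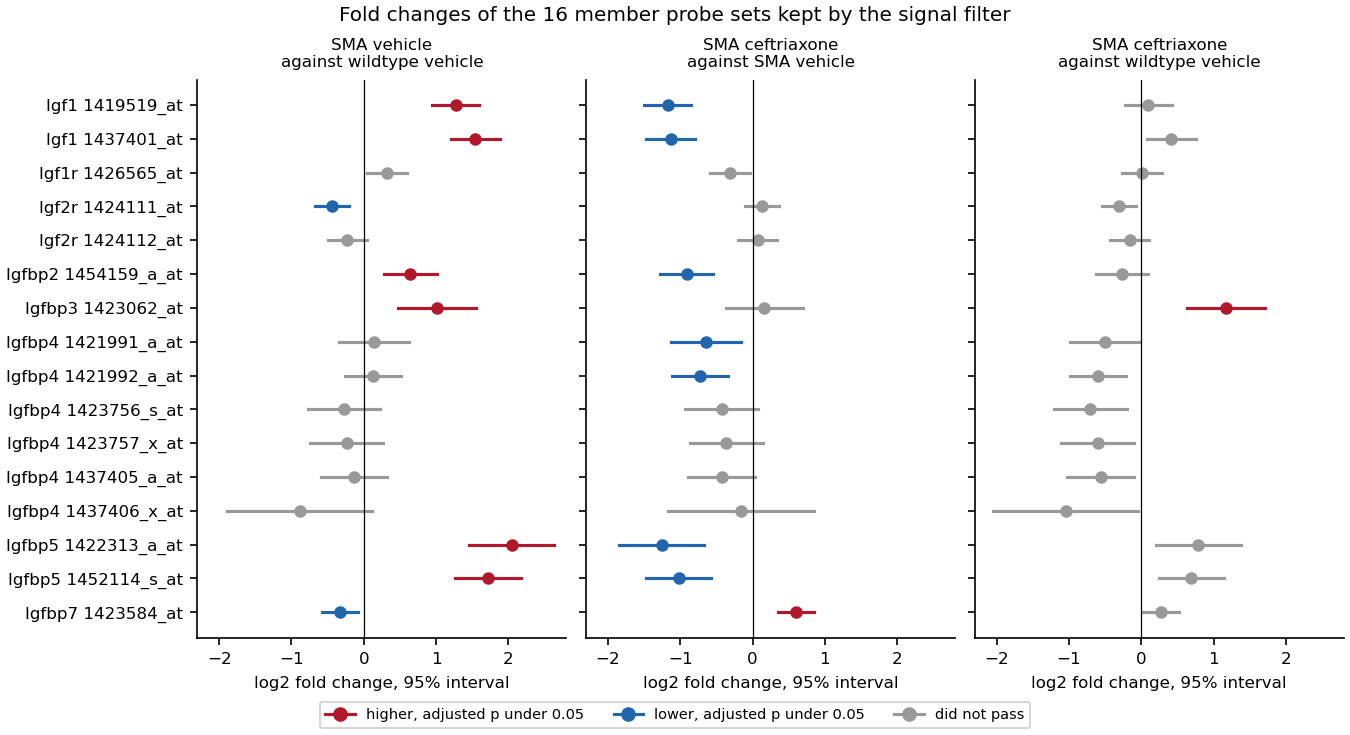
Log2 fold change (points) and unadjusted 95% interval (lines) of the 16 member probe sets kept by the filter, in SMA vehicle against wildtype vehicle, SMA ceftriaxone against SMA vehicle, and SMA ceftriaxone against wildtype vehicle. Red is higher and blue lower at an adjusted p under 0.05, and grey did not pass. The first comparison has 6 red and 2 blue points, the second 1 red and 7 blue, and the third 1 red.

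Because Xist signal differed between groups, SMA vehicle was also set against wildtype among arrays of similar Xist signal, a split chosen after seeing the data. Only 1 wildtype array had Xist above 1000. The changes of the 2 SMA vehicle arrays of that kind against it are given without p-values, because 1 array shows no spread of its own. They were 1.50 for Igf1 probe set 1437401_at, 1.84 for Igfbp5 probe set 1452114_s_at, 1.22 for Igfbp3, 0.68 for Igfbp2, -0.54 for Igf2r probe set 1424111_at and -0.35 for Igfbp7. With Xist under 1000 there were 2 SMA vehicle and 3 wildtype arrays. The changes were then 1.57 for Igf1 (adjusted p = 0.012), 1.51 for Igfbp5 (adjusted p = 0.00897), 1.05 for Igfbp3 (adjusted p = 0.0336) and 0.66 for Igfbp2 (adjusted p = 0.0552). Igf2r was -0.39 (adjusted p = 0.148) and Igfbp7 -0.38 (adjusted p = 0.183) on those 5 arrays, against -0.44 and -0.33 on all arrays. All SMA ceftriaxone arrays had Xist above 1000, and against the 2 SMA vehicle arrays of that kind, Igf1 probe set 1437401_at changed by -1.11 (adjusted p = 0.0027), Igfbp5 probe set 1452114_s_at by -1.27 (adjusted p = 0.00614), Igfbp2 by -0.87 (adjusted p = 0.018) and Igfbp7 by 0.52 (adjusted p = 0.0121).

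Marker genes of several cell types moved with the same groups, to be read against the 47.2% and 35.9% of all probe sets called in SMA vehicle against wildtype and in SMA ceftriaxone against SMA vehicle. Of 11 mature oligodendrocyte markers above the filter, all 11 were lower in SMA vehicle than in wildtype cords and all 11 were higher in SMA ceftriaxone than in SMA vehicle cords. Their summed signal was 105496 to 115713 in SMA ceftriaxone, 26396 to 55843 in SMA vehicle and 90430 to 146644 in wildtype cords. Of 9 immature neuron markers, 8 were higher in SMA vehicle cords than in wildtype cords and 9 lower in SMA ceftriaxone than in SMA vehicle cords, with summed signals of 24132 to 32789 in SMA ceftriaxone, 49871 to 62857 in SMA vehicle and 21886 to 26299 in wildtype cords. Of 10 astrocyte markers, 5 were lower in SMA vehicle than in wildtype cords and 2 were higher, and 7 were higher in SMA ceftriaxone than in SMA vehicle cords. The astrocyte sum was 57940 to 63938 in SMA ceftriaxone, 37747 to 42962 in SMA vehicle and 40607 to 63326 in wildtype cords. Of 10 microglia and macrophage markers, 6 were lower in SMA vehicle than in wildtype cords and 4 did not pass, while 6 were higher in SMA ceftriaxone than in SMA vehicle cords and 4 did not pass. Over 11 such genes the sum was 7853 to 10188 in SMA ceftriaxone, 5994 to 7167 in SMA vehicle and 7805 to 11195 in wildtype cords. Schwann cell genes summed to 3788 to 10187 in SMA ceftriaxone, 1072 to 5242 in SMA vehicle and 6464 to 11344 in wildtype cords, over 5 genes. Most of that sum was 1 gene, Pmp22, with means of 7116 in SMA ceftriaxone, 2047 in SMA vehicle and 7978 in wildtype cords. Of the 3 Schwann cell genes above the filter 2 were lower in SMA vehicle than in wildtype cords and 1 was higher. Pericyte and smooth muscle genes summed to 4334 to 5954 in SMA ceftriaxone, 3074 to 4311 in SMA vehicle and 5214 to 6912 in wildtype cords, with 3 of 7 lower in SMA vehicle than in wildtype cords. Skeletal muscle genes had summed signals of 350 to 927 in SMA ceftriaxone, 2868 to 6629 in SMA vehicle and 732 to 1942 in wildtype cords, over 10 genes. Of those 10, 6 had a mean signal under 50 in SMA ceftriaxone, 1 in SMA vehicle and 3 in wildtype cords. Meningeal and fibroblast markers showed no common direction: of 8 above the filter, 1 was higher, 1 lower and 6 did not pass in SMA vehicle against wildtype, and 2 were lower and 6 did not pass in SMA ceftriaxone against SMA vehicle. Their sum over 12 genes was 6107 to 7913 in SMA ceftriaxone, 7148 to 10854 in SMA vehicle and 5947 to 8442 in wildtype cords. Of 7 oligodendrocyte precursor markers above the filter, 2 were higher and 3 lower in SMA vehicle against wildtype. In SMA ceftriaxone against SMA vehicle, 5 were higher and 0 lower. Of 11 mature neuron markers above the filter, 5 were higher and 2 lower in the first comparison, and 1 higher and 4 lower in the second. Of 3 motor neuron markers, 0 passed in the first and 1 was lower in the second. The part of these cell types in the member results was not tested.

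Among other ligand, receptor and ternary complex genes of the axis, 7 of 8 were on the array and 1, Igf2, lay above the filter. Igf2, the gene of the second IGF ligand, had the same order of groups as Igf1. Its probe set 1448152_at gave 778, 1156, 1559 and 1233 in SMA ceftriaxone, 2491, 1559, 1758 and 2574 in SMA vehicle, and 975, 879, 1124 and 952 in wildtype cords. The log2 fold change was 1.05 ± 0.20 for SMA vehicle against wildtype (adjusted p = 0.000764), -0.83 ± 0.20 for SMA ceftriaxone against SMA vehicle (adjusted p = 0.00599) and 0.23 ± 0.20 for SMA ceftriaxone against wildtype (adjusted p = 0.575). The other 6 genes had mean signals under 50 in every group.

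Genes of the proteases that cut binding proteins, and of their inhibitors, moved in both directions. Of 7 above the filter, 2 were higher and 3 lower in SMA vehicle than in wildtype cords, and 3 were higher and 2 lower in SMA ceftriaxone than in SMA vehicle cords, where 47.2% and 35.9% of all probe sets were called. Pappa, the gene of a pappalysin that cuts Igfbp4 protein, averaged 153 ± 17.2 in SMA ceftriaxone, 238 ± 30.4 in SMA vehicle and 163 ± 21.0 in wildtype cords (SD, n = 4 each). It changed by 0.51 in SMA vehicle against wildtype (adjusted p = 0.00588) and by -0.58 in SMA ceftriaxone against SMA vehicle (adjusted p = 0.00379), and it was named after its values were seen. Stc1, the gene of stanniocalcin-1, which inhibits pappalysins, averaged 104 ± 36.6 in SMA ceftriaxone, 249.8 ± 25.0 in SMA vehicle and 89.7 ± 15.2 in wildtype cords (SD, n = 4 each), a change of 1.34 for SMA vehicle against wildtype (adjusted p = 0.000137). Mmp2, of a matrix metalloprotease, averaged 512 ± 50.1 in SMA ceftriaxone, 266 ± 44.4 in SMA vehicle and 440.2 ± 93.7 in wildtype cords, and Htra1, of a serine protease, 4959 ± 822, 2757 ± 756 and 4102 ± 935 in the same groups. SMA vehicle against wildtype was -0.69 for Mmp2 (adjusted p = 0.00249) and -0.58 for Htra1 (adjusted p = 0.0312). The Htra1 call was lost with the replicate block (adjusted p = 0.0588) and without array 1, 3 or 4 of SMA vehicle or of wildtype (adjusted p = 0.0533 to 0.101). For SMA ceftriaxone against SMA vehicle, Stc1 changed by -1.20 (adjusted p = 0.000641), Mmp2 by 0.91 (adjusted p = 0.000651) and Htra1 by 0.87 (adjusted p = 0.00492).

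Growth hormone drives Igf1 transcription in many tissues. Of 5 growth hormone axis genes above the filter, 2 were higher and 0 lower in SMA vehicle than in wildtype cords, and 1 was lower in SMA ceftriaxone than in SMA vehicle cords, against the 47.2% and 35.9% called over all probe sets. That gene was Socs2, which encodes a feedback inhibitor of growth hormone and cytokine signalling. It averaged 252 ± 47.3 in SMA ceftriaxone, 604 ± 135 in SMA vehicle and 157 ± 12.1 in wildtype cords (SD, n = 4 each). Its log2 fold change was 1.82 ± 0.16 for SMA vehicle against wildtype (adjusted p = 2.46e-06) and -1.20 ± 0.16 for SMA ceftriaxone against SMA vehicle (adjusted p = 0.000135). SMA ceftriaxone against wildtype was 0.62 ± 0.16 (adjusted p = 0.046), a call lost under 17 of 24 alternatives, with adjusted p up to 0.258, among them leaving out array 1, 2 or 3 of either SMA group or array 1, 3 or 4 of wildtype. Ghr, the growth hormone receptor gene, was 0.27 higher in SMA vehicle cords than in wildtype cords (adjusted p = 0.0394), a call lost under 14 of 25 alternatives, among them leaving out SMA ceftriaxone array 2 or 3, SMA vehicle array 2 or 4, or wildtype array 2 or 4.

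Downstream of the receptor, 16 genes of adaptors and the PI3K-AKT-FOXO branch, which carries survival signals, lay above the filter. In SMA vehicle against wildtype cords 4 were higher, 4 lower and 8 did not pass, a share near the 47.2% of all probe sets called. Set against SMA vehicle cords, SMA ceftriaxone cords had 4 higher, 3 lower and 9 that did not pass, where 35.9% of all probe sets were called. Grb14, an adaptor that inhibits insulin receptor signalling, averaged 2003 ± 551 in SMA ceftriaxone, 716 ± 105 in SMA vehicle and 1860 ± 557 in wildtype cords (SD, n = 4 each). It changed by -1.31 in SMA vehicle against wildtype (adjusted p = 0.000479) and by 1.44 in SMA ceftriaxone against SMA vehicle (adjusted p = 0.000521). Irs1, the docking protein that the active receptor phosphorylates, averaged 2006 ± 226 in SMA ceftriaxone, 2533 ± 207 in SMA vehicle and 1673 ± 237 in wildtype cords. It was 0.60 higher in SMA vehicle cords than in wildtype cords (adjusted p = 0.000693). Gsk3b, a kinase that AKT inhibits, was 0.76 higher in that comparison (adjusted p = 0.00193) and changed by -0.48 in SMA ceftriaxone against SMA vehicle (adjusted p = 0.0372), a call lost under 9 of 25 alternatives, among them Xist signal as a covariate (-0.30, adjusted p = 0.189) and leaving out SMA ceftriaxone array 1, 3 or 4 or SMA vehicle array 2, 3 or 4. Phlpp1, a phosphatase that acts on AKT, changed by 0.52 in SMA ceftriaxone against SMA vehicle (adjusted p = 0.00385). Its change was -0.50 in SMA vehicle against wildtype (adjusted p = 0.00333) and 0.025 in SMA ceftriaxone against wildtype (adjusted p = 0.935). The Phlpp1 values against wildtype were not recomputed under the alternatives. Grb10, another inhibitory adaptor, was the 1 gene of 16 called in SMA ceftriaxone against wildtype (0.43, adjusted p = 0.0397), where 4.21% of all probe sets were called. The Grb10 call was lost under 18 of 25 alternatives, among them leaving out any 1 SMA array or wildtype array 3 or 4.

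Of 15 genes of mTORC1 and translation control, the growth branch, 6 were higher and 2 lower in SMA vehicle than in wildtype cords, a share close to the 47.2% called over all probe sets. Against SMA vehicle, SMA ceftriaxone cords had 1 higher and 4 lower, where 35.9% of all probe sets were called. The stress-induced mTORC1 inhibitor genes Ddit4 and Sesn2 were higher than wildtype in both SMA groups. Sesn2 averaged 402 ± 46.9 in SMA ceftriaxone, 338 ± 59.3 in SMA vehicle and 184 ± 52.9 in wildtype cords (SD, n = 4 each). Its change was 0.85 for SMA vehicle against wildtype (adjusted p = 0.00202) and 1.10 for SMA ceftriaxone against wildtype (adjusted p = 0.00748, and 0.0591 with Xist signal as a covariate). Ddit4 averaged 4092 ± 827 in SMA ceftriaxone, 3058 ± 82.0 in SMA vehicle and 1713 ± 979 in wildtype cords, with changes of 1.05 (adjusted p = 0.0231) and 1.44 (adjusted p = 0.0339) in the same comparisons. The second Ddit4 call was lost under 11 of 25 alternatives, with adjusted p up to 0.114, among them leaving out any 1 SMA ceftriaxone array, SMA vehicle array 2 or 3, or wildtype array 4. The first was lost without wildtype array 4 (0.92, adjusted p = 0.0656), with only the 2 groups in the fit (adjusted p = 0.0524) and on arrays of low Xist signal (0.64, adjusted p = 0.275), and was 0.65 without wildtype array 3 (adjusted p = 0.0475). Eif4b, a translation initiation factor gene, was 0.55 higher in SMA vehicle cords than in wildtype cords (adjusted p = 0.00024). Tsc2, of the complex that restrains mTORC1, changed by -0.57 in SMA ceftriaxone against SMA vehicle (adjusted p = 0.00071), Rps6kb2, of a ribosomal S6 kinase, by -0.47 (adjusted p = 0.0422, lost under 12 of 24 alternatives, including without any 1 SMA array) and Sesn3 by -0.32 (adjusted p = 0.0133). In SMA vehicle against wildtype, Tsc2 changed by 0.50 (adjusted p = 0.000904), Rps6kb2 by 0.51 (adjusted p = 0.0232) and Sesn3 by 0.45 (adjusted p = 0.000936). None of them passed in SMA ceftriaxone against wildtype (adjusted p = 0.434 to 0.931). Their values against wildtype were not recomputed under the alternatives.

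The RAS-ERK branch, which carries mitogenic signals, had 14 genes above the filter. In SMA vehicle against wildtype cords 2 were higher, 7 lower and 5 did not pass, with a median log2 fold change of -0.24 over the 14. In SMA ceftriaxone against SMA vehicle cords 9 were higher, 2 lower and 3 did not pass, with a median of 0.36. Over all probe sets 47.2% were called in the first comparison, 24.9% higher and 22.3% lower, and 35.9% in the second, 18.3% higher and 17.7% lower, with medians of 0.01 and -0.01. The kinase gene Araf averaged 225 ± 31.9 in SMA ceftriaxone, 145 ± 20.0 in SMA vehicle and 272 ± 31.7 in wildtype cords (SD, n = 4 each). It changed by -0.84 in SMA vehicle against wildtype (adjusted p = 0.00018) and by 0.58 in SMA ceftriaxone against SMA vehicle (adjusted p = 0.0041). Sos2, an exchange factor that loads RAS, changed by -0.69 (adjusted p = 3.22e-05) and 0.58 (adjusted p = 0.000297), and Shc1, an adaptor of receptor kinases, by -0.66 (adjusted p = 0.00622) and 0.60 (adjusted p = 0.0149). The first Shc1 value was -0.29 on arrays of high Xist signal, given without a p-value because of the 1 wildtype array. It was -0.94 on arrays of low Xist signal (adjusted p = 0.0509). The second call was lost with Xist signal as a covariate (0.49, adjusted p = 0.0744), on arrays of high Xist signal (0.36, adjusted p = 0.054) and without SMA vehicle array 3 (0.51, adjusted p = 0.0524). In SMA ceftriaxone against wildtype 1 gene was called, where 4.21% of all probe sets were called. It was the ERK pathway inhibitor gene Spred1 (0.29, adjusted p = 0.0445). The Spred1 call was lost under 19 of 25 alternatives, among them leaving out any 1 SMA array or wildtype array 1, 3 or 4. Of the IGF2 mRNA binding protein genes 1 lay above the filter and it passed in no comparison.

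**Figure D4:**
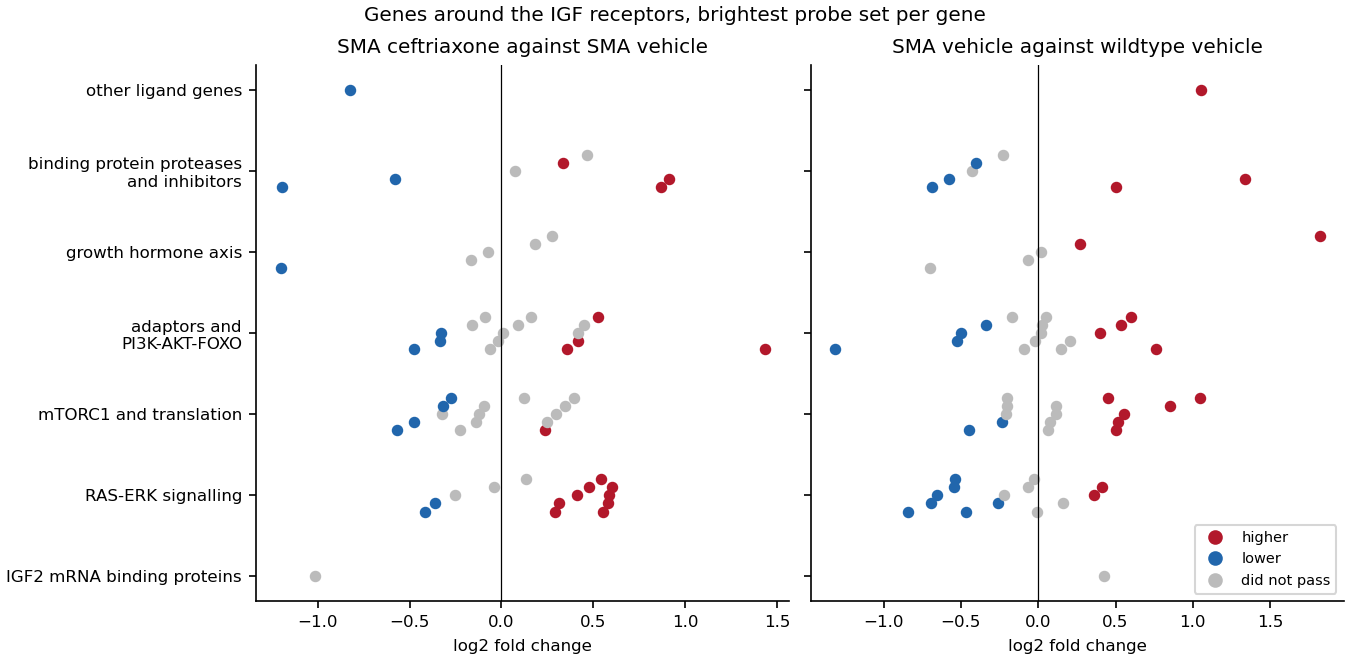
Log2 fold changes of genes around the IGF receptors (1 point per gene, its brightest probe set) by list, for SMA ceftriaxone against SMA vehicle on the left and SMA vehicle against wildtype vehicle on the right. Red is higher and blue lower at an adjusted p under 0.05, and grey did not pass. In the RAS-ERK list, 9 points are red and 2 blue on the left, and 2 are red and 7 blue on the right.

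For each member whose brightest probe set above the filter passed in SMA vehicle against wildtype, the genes of most similar profile over the 12 arrays were found by the root mean square difference of mean-centred log2 signals, which is a description of these arrays. Kdm2b, a histone demethylase gene (difference 0.085), and Cdhr1, a cadherin-related gene (0.118), were nearest to Igf1, whose own profile had an SD of 0.68. Igfbp5 (SD 0.77) was nearest to Gdf10 (0.222), of a secreted ligand of the TGF-beta family, and Gng2 (0.225), of a G protein subunit. Igfbp2 (SD 0.45) was nearest to Caprin1 (0.160) and Ehbp1l1 (0.161). Igfbp7 (SD 0.29) was nearest to Sardh (0.081) and to Mlc1 (0.085), an astrocyte membrane protein gene. Igfbp3 (SD 0.62) had no neighbour as close relative to its spread, and its nearest were Spon1 (0.283) and the astrocyte glutamate transporter gene Slc1a3 (0.291).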

How the data were processed

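Expression was measured on 12 Affymetrix mouse arrays, 4 per group, grouped by GEO's labels. The deposited values are MAS5 signal intensities per probe set (linear), per the submitters' processing notes, with no version given in the sources used here. The authors had scaled each array: the trimmed mean was 700.2 on all 12, as tested on the deposited values. No 2 arrays were identical (0 pairs). Detection calls were not used here, and the number of arrays sets the precision, with 0.12 as the median standard error over probe sets for SMA vehicle against wildtype (log2 scale).

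Of 22690 probe sets, 64 controls were removed. Those with a mean log2(signal + 16) above the 40th percentile were tested, 13575 in all, with signals averaging at least 125 (geometric mean, 7.14 in log2). R 4.3.3 and limma 3.58.1 fitted 3 group means to the 12 arrays together (9 residual degrees of freedom, eBayes trend on), with two-sided tests and Benjamini-Hochberg adjustment over all kept probe sets. The offset understates changes of dim genes. The script was tested on simulated data. Symbols came from the platform annotation (1 for 20393 probe sets, several for 691, none for 1606) and were updated by gene identifier for 20364. Promoter sequences came from RefSeq (GRCm38.p6), which matched all 9 members.

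The members and lists were chosen with earlier results of these data known. Named were all members, Smn1, the 3 pathway genes of largest change per list and comparison among those that passed, and the 2 genes nearest to each called member. Rag1, Xist and Pappa were chosen after their values were seen. Igf1 antisense signals are named as a possible overlap. Same-numbered arrays deviated together with correlations of -0.14 to 0.13, and 2 of 12 pairs exceeded 0.1, so numbers were not taken to pair mice. The alternatives tried were no filter or the 60th percentile, median centring or quantile normalization, offsets of 1 or 64, no trend, array weights, only the groups compared, the replicate block, Xist signal or the Gapdh 3 prime to 5 prime ratio as a covariate, and leaving out each array. Fits on arrays of high or of low Xist signal were added after seeing the data.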

Additional observations from a re-analysis of the deposited data

Results flagged for a closer look

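In the SMA ceftriaxone group, array 4 stood apart for Igf1r probe set 1426565_at, with a signal of 326, while the other 3 arrays lay at 259 to 262. On the log2 scale used for the tests, its gap to the nearest array was 0.95 of the range of the group. That is above Dixon's 95% critical value for 4 samples. It was the only one flagged on that scale among 63 member groups examined, and chance flags about 1 in 20 such groups. Which groups are flagged can differ on the linear signals.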

How the results depend on the processing

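Each member value was recomputed under the alternatives. For SMA vehicle against wildtype, 188 of 204 recomputed values of called probe sets kept their direction and call, 16 lost the call and 0 reversed. For SMA ceftriaxone against SMA vehicle these were 187 of 196, 9 and 0, and for SMA ceftriaxone against wildtype 17 of 24, 7 and 0. Of 36 named pathway values, 18 kept their call under every alternative run on them and 0 reversed. These counts, and the counts of alternatives given above, include the fit on high-Xist arrays. That fit held 1 wildtype array, taken to vary like the other groups. On low-Xist arrays (2 SMA vehicle against 3 wildtype) the calls of Mmp2 (-0.80, adjusted p = 0.0513), Irs1 (0.57, adjusted p = 0.0691), Eif4b (0.51, adjusted p = 0.0712), Pappa (0.57, adjusted p = 0.0801) and Sesn2 (0.74, adjusted p = 0.149) were lost.

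SMA ceftriaxone against wildtype was the comparison most open to the processing, and the cause was not tested. All probe sets passing numbered 572, against 236 with median centring, 1826 with array weights, 344 with the replicate block, 80 with Xist as a covariate, 213 with the Gapdh ratio, 111 with only the groups compared and 46 on high-Xist arrays. Leaving out 1 array gave 164 to 1434, the highest without wildtype array 2. Member probe sets passing numbered 1, against 8 with array weights and 0 to 5 when leaving out 1 array. They numbered 0 with a filter at the 60th percentile (8 member probe sets left to test). The count was also 0 with Xist as a covariate, the Gapdh ratio or only the groups compared. At the 60th percentile, member probe sets passing were 4 of 8 tested for SMA vehicle against wildtype and 4 of 8 for SMA ceftriaxone against SMA vehicle. On low-Xist arrays 6 member probe sets and 2253 of all probe sets passed for SMA vehicle against wildtype, with fewer arrays. The count on high-Xist arrays given above for SMA ceftriaxone against wildtype rests on 1 wildtype array, which shows no spread of its own. No conclusion is drawn from that count, and other counts of passing probe sets on high-Xist arrays are not given. When leaving out 1 array, member probe sets passing were 7 to 9 for SMA vehicle against wildtype and 7 to 11 for SMA ceftriaxone against SMA vehicle. With the replicate block, member probe sets passing were 8, 9 and 1 in the 3 comparisons, and all probe sets passing were 6174, 4572 and 344.

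Reversals were limited to values that had not passed. Igf1r 1426565_at in SMA ceftriaxone against wildtype was -0.046 with array weights, -0.027 with Xist as a covariate, -0.016 on high-Xist arrays and -0.067 to 0.038 when leaving out 1 array. Igf2r 1424112_at was 0.053 on high-Xist arrays in that comparison, and -0.023 to 0.17 in SMA ceftriaxone against SMA vehicle when leaving out 1 array. In SMA ceftriaxone against SMA vehicle, leaving out 1 array gave -0.60 to 0.12 for Igfbp4 1437406_x_at and -0.032 to 0.36 for Igfbp3 1423062_at. In SMA vehicle against wildtype, Igfbp4 on high-Xist arrays was 0.085 (1423756_s_at), 0.0076 (1423757_x_at) and 0.16 (1437405_a_at), and on low-Xist arrays -0.042 (1421991_a_at) and -0.13 (1421992_a_at). Without calls of detection, no lower limit of the signal could be set for dim members such as Igfbp6.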
